A study of Papio anubis with 8 samples.

Results

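The transcripts described here belong to 10 genes that carry, tune or answer the glucocorticoid signal: the receptors NR3C1 and NR3C2, the receptor cochaperones FKBP5 and FKBP4, the cortisol-converting enzymes HSD11B1 and HSD11B2, and the hormone-induced genes SGK1, TSC22D3, KLF9 and ZBTB16. They were picked by gene symbol from the 37053 genes of the deposited table, and each symbol had exactly 1 row. Hippocampal RNA was taken from fetuses of the olive baboon, Papio anubis, at 0.9 of term, in a study of mothers that differed in body fat and leptin. Library construction started from 25 ng of total RNA with a kit that keeps strand information. The labels place none of the 8 libraries, AMB3 to AMB10, in a maternal group and give no fetal sex or age beyond the stage shared by all. Hence each library is reported by itself, no maternal groups are compared, and differences between libraries may be biological or technical. Nothing in the labels ties each library to a separate fetus.

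In the brain cortisol acts through a pair of nuclear receptors. The mineralocorticoid receptor, NR3C2, binds it with high affinity and is a hallmark of hippocampal neurons, and the glucocorticoid receptor, NR3C1, binds it with lower affinity and is found in most cells. Unliganded receptor sits in a complex with HSP90, in which FKBP5 lowers hormone affinity and FKBP4 favours transport to the nucleus. Inside the cell HSD11B1 regenerates cortisol from inert cortisone, whereas HSD11B2 inactivates cortisol and shields fetal tissue from the maternal hormone.

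Library totals lay between 40405016 estimated counts in AMB9 and 71648801 in AMB10. Levels are CPM, counts per 1000000 after correction for library composition, and they serve to compare 1 gene between libraries. Transcript lengths were not used, so levels of different genes are not compared. Error bars and intervals are exact 95% Poisson intervals of the count in 1 library and cover counting error only. The range of a gene is its highest minus its lowest log2 CPM over the 8 libraries. All 10 genes passed the low-count filter, as did 16874 genes in all. Annotated loci overlap NR3C2, FKBP5, SGK1 and ZBTB16, but none of these 8 loci had more than 2 counts in a library. A log2 range of at least 1 was found in 5 of the 10 genes (NR3C2, FKBP5, HSD11B1, HSD11B2 and SGK1), against 36.1% of all tested genes. A range of at least 2 was found in 3 of the 10 (NR3C2, HSD11B1 and HSD11B2), against 9.0% of all tested genes. The median range was 0.93 for the 10 genes and 0.77 for all tested genes.

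**Figure D1:**
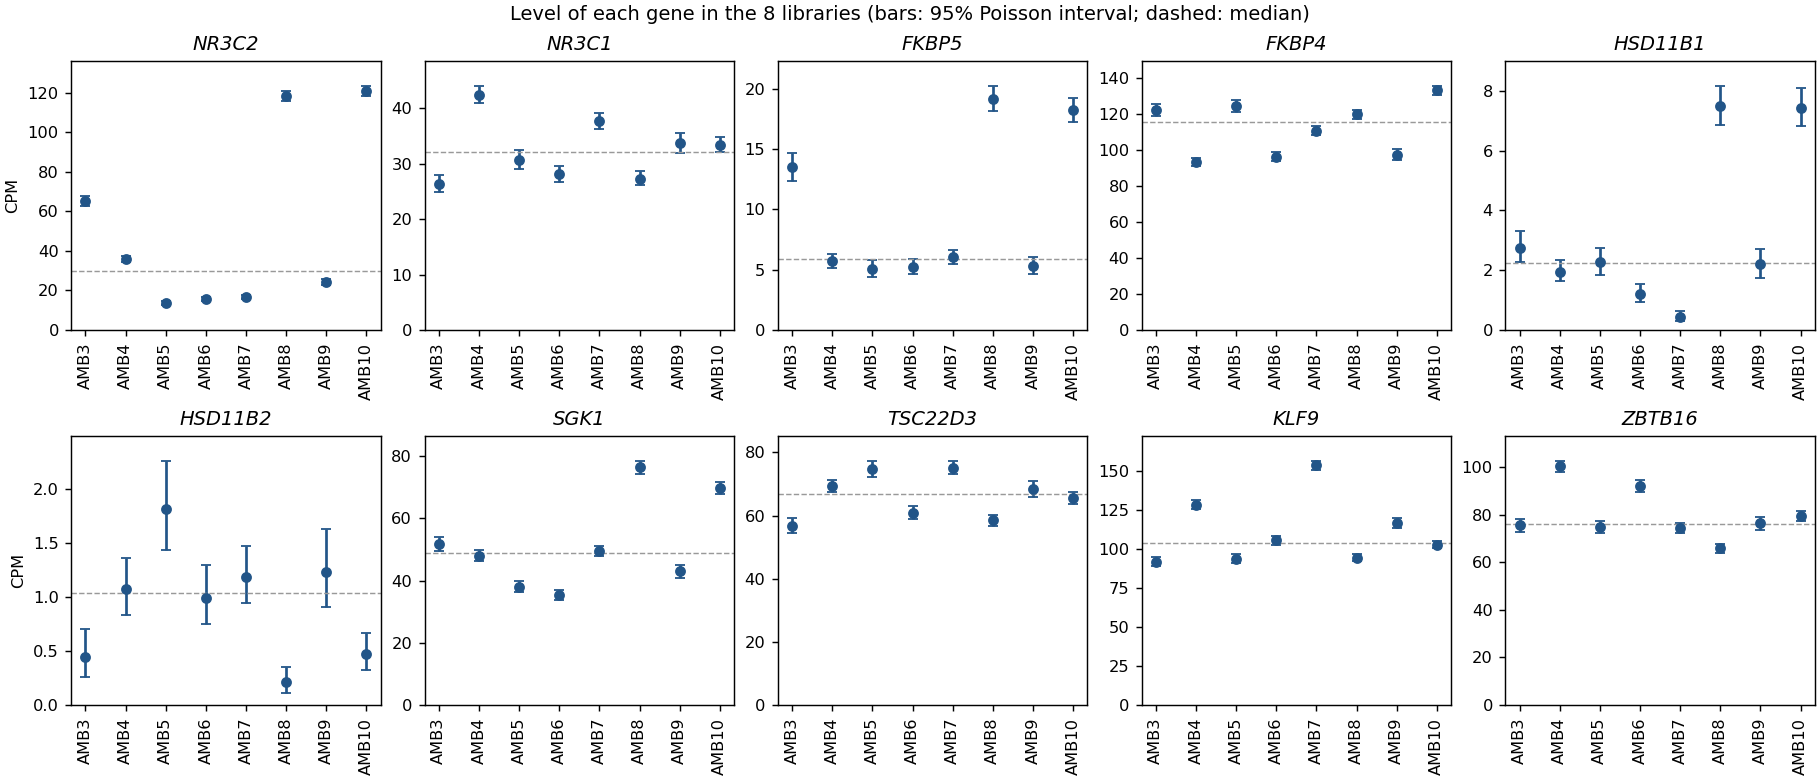
Each panel plots the CPM of 1 gene (vertical axis, from 0) in the 8 libraries (horizontal axis), with bars for the 95% Poisson interval and a dashed line at the median. NR3C2, FKBP5 and HSD11B1 were highest in AMB8 and AMB10, HSD11B2 was lowest in AMB8, and TSC22D3 and FKBP4 stayed close to their medians.

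The mineralocorticoid receptor differed far more between libraries than the glucocorticoid receptor did. NR3C2 (chromosome 3, 40888680 to 41252367, plus strand, assembly Panubis1.0) was at 121 CPM in AMB10 (8673 counts, interval 118.5 to 123.6) and 118 CPM in AMB8 (7918 counts, interval 115.6 to 120.8). AMB3 followed with 65.1 CPM and AMB4 with 35.6 CPM. The lower levels were 24.3 CPM in AMB9, 16.8 in AMB7, 15.8 in AMB6 and 13.6 in AMB5 (589 counts, interval 12.5 to 14.7). Of the 7 pairs of libraries next to each other in this order, only AMB10 with AMB8 and AMB7 with AMB6 had overlapping intervals. The highest level was 8.93 times the lowest, a log2 range of 3.16, and 2.10% of all tested genes had a range as large. Leaving out AMB5, the library that mattered most, left a range of 2.94.

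NR3C1 (chromosome 5, 135962217 to 136114913, minus strand) had its highest level in AMB4, 42.5 CPM (2722 counts, interval 40.9 to 44.1). AMB7 had 37.7 CPM, AMB9 33.7, AMB10 33.4, AMB5 30.8, AMB6 28.2, AMB8 27.3 and AMB3 26.4 CPM (1074 counts, interval 24.9 to 28.1). From AMB9 down to AMB3 each library overlapped the next one, and AMB4 and AMB7 stood above them. The highest level was 1.61 times the lowest, a log2 range of 0.68, and 56.5% of tested genes had a range at least as large. The library highest for NR3C2, AMB10, thus held the fourth level of NR3C1, and AMB8 and AMB3 held its 2 lowest levels.

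The balance of the receptors is often given as their ratio, which is free of library scaling. On the log2 scale, the NR3C2 to NR3C1 ratio lay 2.47 above its median in AMB8, 2.22 above in AMB10 and 1.66 above in AMB3. AMB4 was 0.11 above and AMB9 0.11 below the median. The ratio was 0.48 below the median in AMB6, 0.81 below in AMB7 and 0.82 below in AMB5. The 3 high libraries were therefore separated from the other libraries by more than those differed among themselves. The whole span was 3.29 on the log2 scale, or 9.79-fold, and 3.04 without AMB8.

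**Figure D2:**
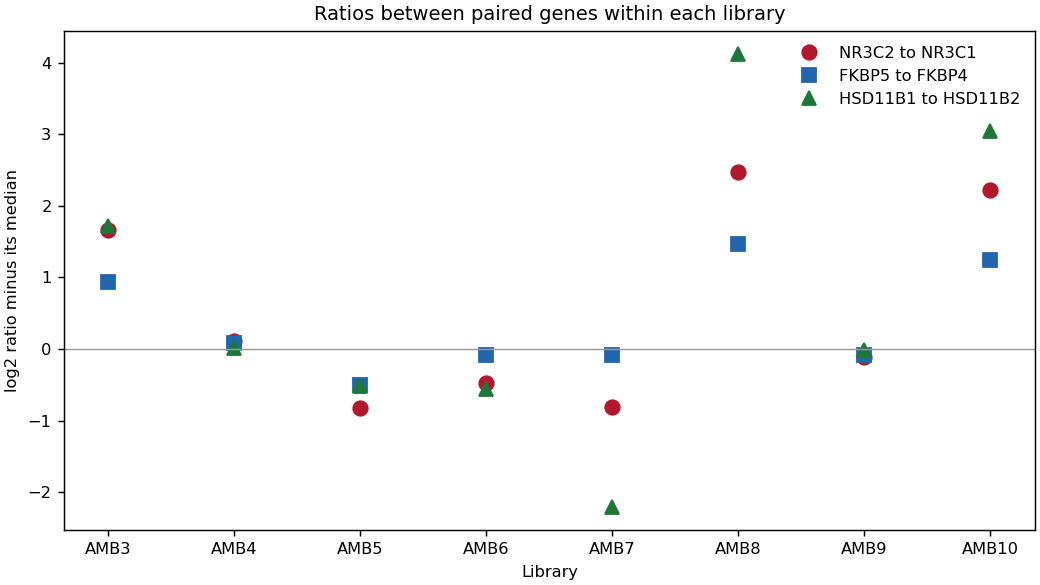
The log2 ratio of NR3C2 to NR3C1 (circles), FKBP5 to FKBP4 (squares) and HSD11B1 to HSD11B2 (triangles) is plotted for each library, minus the median of that ratio over the 8 libraries. All 3 ratios were highest in AMB8, then AMB10, then AMB3, and the enzyme ratio had the widest span, 6.33.

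Among the cochaperones, FKBP5 showed a stepped pattern and FKBP4 a nearly even one. FKBP5 (chromosome 6, 33890906 to 34007497, minus strand), which glucocorticoids induce and which in turn dampens the receptor, had 1287 counts in AMB8 (19.2 CPM), 1306 in AMB10 (18.2 CPM) and 549 in AMB3 (13.5 CPM). The other libraries had 6.04 CPM (AMB7), 5.69 (AMB4), 5.31 (AMB9), 5.24 (AMB6) and 5.06 (AMB5, 220 counts). These 5 lower libraries could not be ordered, since each interval overlapped the next. The gap between AMB3 and AMB7 took up 0.603 of the log2 range of 1.92. The highest level was 3.80 times the lowest, and 10.1% of tested genes had a range at least as large.

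FKBP4 (chromosome 9, 2834397 to 2843698, plus strand) had 133 CPM in AMB10, 124 in AMB5, 122 in AMB3, 119.6 in AMB8 and 110.6 in AMB7. AMB9, AMB6 and AMB4 were lowest with 97.2, 96.1 and 93.1 CPM. Its log2 range was 0.51, and 73.5% of tested genes ranged at least as widely. The FKBP5 to FKBP4 ratio was above its median by 1.47 in AMB8, 1.24 in AMB10 and 0.94 in AMB3 on the log2 scale. It was 0.08 above the median in AMB4, 0.08 below it in AMB6, AMB7 and AMB9, and 0.50 below it in AMB5.

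The cortisol-converting enzymes had the fewest counts of the 10 genes and opposite ends of their orders in AMB8. HSD11B1 (chromosome 1, 152173328 to 152203738, minus strand) reached 7.49 CPM in AMB8 (502 counts, interval 6.85 to 8.18) and 7.44 CPM in AMB10 (533 counts, interval 6.82 to 8.10). AMB3 had 2.76 CPM (112 counts), AMB5 2.26 (98 counts), AMB9 2.19 (87 counts) and AMB4 1.95 (125 counts), and each of these overlapped the next. AMB6 had 1.20 CPM (65 counts), and AMB7 had 0.434 CPM from 31 counts (interval 0.295 to 0.616). The highest level was 17.3 times the lowest, the widest range of the 10 genes, with 0.842% of tested genes at or above it. It rested in part on AMB7, without which the log2 range was 2.61.

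HSD11B2 (chromosome 18, 22492579 to 22499023, minus strand) was counted 14 to 85 times per library, so that its order was only partly resolved. It stood at 1.82 CPM in AMB5 (79 counts, interval 1.44 to 2.27), 1.23 in AMB9 (49 counts), 1.19 in AMB7 (85 counts), 1.08 in AMB4 (69 counts) and 0.996 in AMB6 (54 counts). AMB10 had 0.475 CPM (34 counts, interval 0.329 to 0.663), AMB3 0.443 (18 counts) and AMB8 0.209 (14 counts, interval 0.114 to 0.351). Within the upper 5 libraries and within the lower 3 libraries, each interval overlapped the next, whereas the intervals of AMB6 and AMB10 did not overlap. The log2 range of 2.92 fell to 1.95 without AMB8.

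H6PD, the enzyme that supplies HSD11B1 with reduced cofactor inside the endoplasmic reticulum, was even by comparison, between 8.97 CPM in AMB7 and 13.2 CPM in AMB6. The HSD11B1 to HSD11B2 ratio was above its median by 4.12 in AMB8, 3.05 in AMB10 and 1.72 in AMB3 on the log2 scale. AMB4 lay 0.01 above and AMB9 0.01 below the median, AMB5 and AMB6 were 0.52 and 0.56 below it, and AMB7 was 2.21 below it. This span of 6.33 was 4.69 without AMB7. Relative to H6PD, HSD11B1 spanned 3.70 and HSD11B2 3.15 on the log2 scale, with AMB8 highest for the former and lowest for the latter.

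The 4 hormone-induced genes did not share a profile. SGK1, a kinase that both receptors induce and that regulates ion channels (chromosome 6, 128461777 to 128611999, plus strand), was at 76.5 CPM in AMB8 and 69.8 CPM in AMB10. AMB3, AMB7 and AMB4 formed a middle run of overlapping intervals with 51.6, 49.4 and 48.1 CPM. Lower levels were found in AMB9 (43.0 CPM), AMB5 (38.0 CPM) and AMB6 (35.4 CPM). The log2 range was 1.11, and 0.98 without AMB8, with 30.7% of tested genes at or above 1.11.

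TSC22D3, which encodes the anti-inflammatory leucine zipper protein GILZ (chromosome X, 45731271 to 45795162, plus strand), was the most even of the 10 genes. It ran from 56.7 CPM in AMB3 and 58.5 in AMB8 through a median of 66.9 to 75.2 CPM in AMB7, a log2 range of 0.41. In 85.1% of tested genes the range was at least as large. The zinc finger factor KLF9 (chromosome 13, 26962525 to 26993005, plus strand), which thyroid hormone also induces, was highest in AMB7 with 154 CPM and in AMB4 with 128 CPM. The other libraries had 91.8 CPM (AMB3) to 116.7 CPM (AMB9). Its log2 range of 0.74 fell to 0.48 without AMB7.

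ZBTB16, the transcription factor PLZF (chromosome 12, 20213907 to 20410550, minus strand), had 100.3 CPM in AMB4 and 91.9 CPM in AMB6. AMB10, AMB9, AMB3, AMB5 and AMB7 lay between 74.3 and 79.4 CPM, with overlapping intervals from each to the next, and AMB8 was lowest with 65.9 CPM. Its log2 range was 0.61. AMB8 therefore held the highest level of SGK1 and FKBP5, the lowest of ZBTB16, and the level next to the lowest of TSC22D3.

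**Figure D3:**
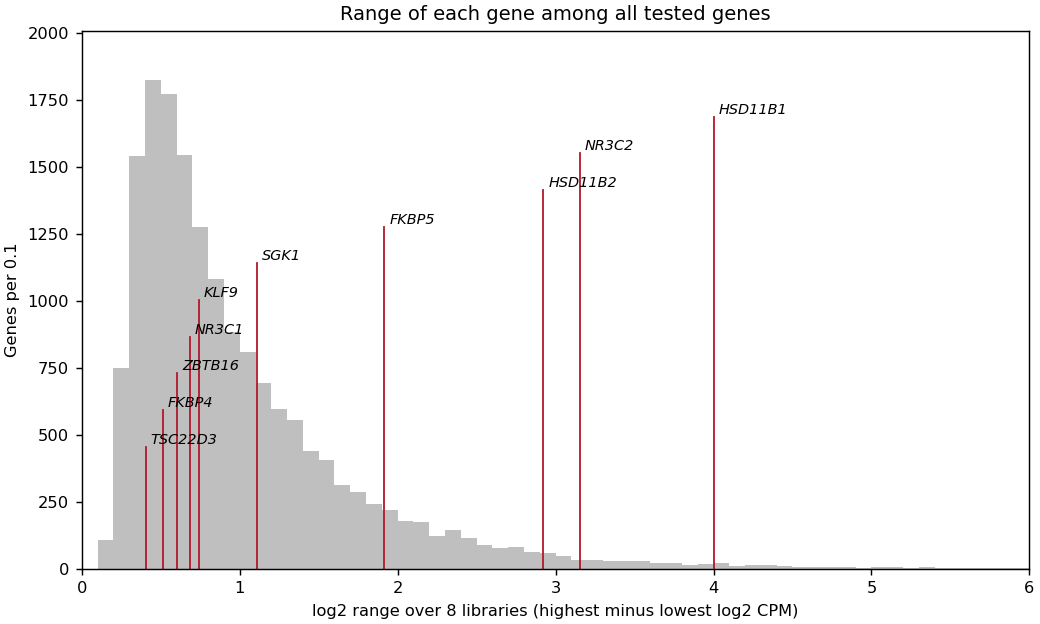
Grey bars count the tested genes (vertical axis) by their log2 range over the 8 libraries (horizontal axis, drawn to 6, which leaves out 13 genes), and red lines of arbitrary height mark the 10 genes. TSC22D3 lies at 0.41 in the dense part of the distribution, while HSD11B2 at 2.92, NR3C2 at 3.16 and HSD11B1 farthest right lie in the sparse part.

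The same libraries recurred at the ends of these orders. AMB3, AMB8 and AMB10 were the 3 highest libraries for NR3C2, FKBP5, HSD11B1 and SGK1, 4 of the 10 genes, and for 9.71% of all tested genes. The interval of AMB3 overlapped that of the next library, AMB5 for HSD11B1 and AMB7 for SGK1. For these genes the place of AMB3 was thus not resolved beyond counting error. AMB3, AMB8 and AMB10 were the 3 lowest libraries for HSD11B2, 1 of the 10, and for 9.87% of all tested genes. With plain library totals FKBP4 also had them highest. These are the libraries whose median the deposited normalized values take as 0: that held in every one of 15582 genes counted more than 20 times per library, and for no other trio in more than 47.1% of them. The labels do not explain the choice. No test set the trio against the other libraries, but its place in the orders was counted here and below. Log2 profiles centred on each gene's median were compared by their root mean square difference. Among the 10 genes it was smallest between NR3C1 and TSC22D3 and between NR3C1 and KLF9 (0.16 each). TSC22D3 and KLF9 differed by 0.21, as did NR3C1 and ZBTB16. The measure is not scaled for range, so genes of small range tend to lie close to each other. NR3C2 was closest to FKBP5 (0.56) and farthest from HSD11B2 (2.17).

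Hippocampal and cortical marker genes differed between the same libraries. Over all tested genes, AMB3, AMB8 and AMB10 were highest for 9.71% and lowest for 9.87%. Of 12 markers of the pyramidal (CA) fields, all tested, AMB3, AMB8 and AMB10 were highest for 4 (FIBCD1, GRIK4, RGS14 and CPNE4) and lowest for 1 (MPPED1). The summed level of these 12 ran from 1311 CPM in AMB6 to 1993 in AMB10 and 2005 in AMB8. Of 7 tested dentate granule markers, the 3 libraries were highest for PROX1, C1QL2 and NEUROD1 and lowest for STXBP6. The summed level of the 8 dentate markers with a row was 215 CPM in AMB6, 451 in AMB8 and 457.5 in AMB10, with AMB3 at 254. Of 10 tested cortical layer markers, 7 were lowest in the 3 libraries (among them CUX2, RORB, FEZF2, TBR1, FOXP2 and MEF2C) and 1 was highest (BCL11B). Their summed level, with 11 rows, was 1847 to 2809 CPM in 5 libraries and lower in AMB3 (814 CPM), AMB10 (429) and AMB8 (379.6). No marker of these 3 lists was at 0 in any library. MEF2C, a transcription factor of the cortical list, had 1199 to 1779 CPM in 5 libraries and 326, 139.6 and 123 CPM in AMB3, AMB10 and AMB8. FIBCD1, a marker of the CA1 field, was instead highest in these libraries, AMB8 (399 CPM), AMB10 (366) and AMB3 (83.9), followed by AMB4 (76.8), and lowest in AMB5 (8.999 CPM). Other genes of the CA list did not follow FIBCD1. WFS1 was highest in AMB3 (87.5 CPM), but in AMB8 it had 64.0 CPM, with only AMB5 lower (54.4). PCP4 and AMIGO2 were lowest in AMB8 (18.4 and 3.15 CPM). The part of these cell types in the levels of NR3C2, FKBP5, HSD11B1, SGK1 and HSD11B2 was not tested. In bulk RNA fewer cells of a type and less RNA per cell cannot be told apart.

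Astrocyte markers also had these libraries on top. Among 8 of them, 6 had AMB3, AMB8 and AMB10 as the highest libraries, against 9.71% of all tested genes. The sum of the 8 was lowest in AMB7 (2928 CPM) and highest in AMB10 (6411 CPM). In the remaining cell types the 3 libraries held neither the 3 highest nor the 3 lowest sums. The 10 markers of myelinating oligodendrocytes all had a log2 range of at least 2, against 9.0% of all tested genes. They summed to 777 CPM in AMB5, 794 in AMB3, 4131 in AMB4 and 5025 in AMB10. The 8 markers of oligodendrocyte precursors summed to 247 CPM in AMB7 and 715 in AMB10, and the 10 of interneurons to 833 in AMB8 and 1318 in AMB3. Those of meninges and fibroblasts had their highest sums in AMB7 (780 CPM), AMB3 (630) and AMB4 (605), and their lowest in AMB5 (194). Pericyte and smooth muscle markers summed to 179 CPM in AMB8 and 460 in AMB4, endothelial markers to 205 in AMB9 and 290 in AMB4, and microglial markers to 78.5 in AMB8 and 166 in AMB6. Markers of choroid plexus and ependyma summed to between 136 and 184.5 CPM, most of it FOXJ1 (114 to 148 CPM). Of the 4 tested, 3 had a range of at least 2, against 9.0% of all tested genes. AQP1 ran from 0.492 CPM in AMB3 to 22.05 in AMB6, and PIFO from 0.230 CPM in AMB5 to 14.6 in AMB10. Blood markers summed to between 38.9 CPM in AMB8 and 154 in AMB9. ZBTB16, KLF9 and NR3C1 all had AMB4 among their 2 highest libraries. AMB4 was also highest for the sums of pericyte and smooth muscle and of endothelial markers, and second for those of myelin and precursors. Within the pericyte list AMB4 was highest for MYH11 (59.0 CPM) but below the median for PDGFRB (30.5 against 34.4 CPM). AMB7, highest for KLF9 and second for NR3C1, had sums of 195 CPM for pericyte and smooth muscle and 209 for endothelial markers. It was lowest for precursors. The part of these cell types in the levels of ZBTB16, KLF9 and NR3C1 was not tested.

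**Figure D4:**
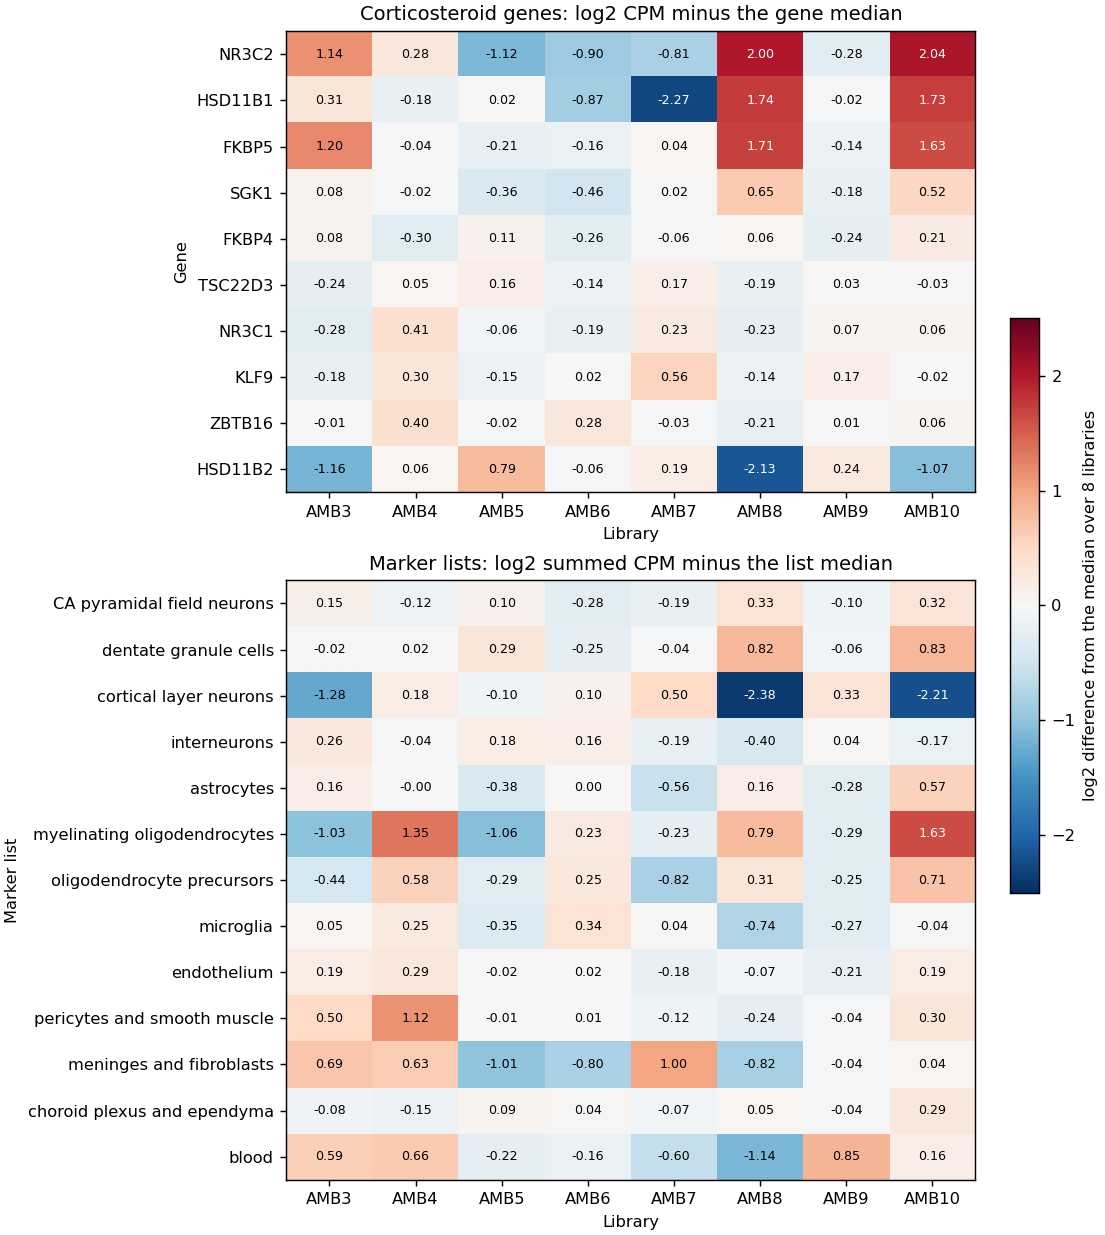
The upper heat map gives log2 CPM minus the gene median for the 10 genes in each library, and the lower one the log2 summed CPM of each marker list minus its median, on 1 colour scale. NR3C2, HSD11B1 and FKBP5 were high in AMB8 and AMB10, where the cortical layer sum was lowest and the dentate sum highest.

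The machinery around the receptors is described by its counts, beside the 36.1% of all tested genes with a range of at least 1 and their median range of 0.77. Of 15 chaperones and cochaperones 13 had a row and were tested, and none had a log2 range of at least 1 (median range 0.47). The HSP90 proteins HSP90AA1 and HSP90AB1 ran from 1262 to 1790 and from 1478 to 2123 CPM. The widest were BAG1, from 52.4 CPM in AMB10 to 95.1 in AMB5, and PPP5C, from 117 CPM in AMB10 to 178 in AMB5. Among 19 coregulators, all tested, 2 had a range of at least 1 (median 0.43), 1 without AMB5 and 0 without AMB7. NRIP1, a ligand-dependent corepressor, lay between 56.8 CPM in AMB3 and 124 in AMB7 (range 1.12, and 0.81 without AMB7). The coactivator NCOA3 lay between 30.1 CPM in AMB5 and 62.0 in AMB7 (range 1.04, and 0.50 without AMB5). The corepressor NCOR1 had 229 to 288 CPM in 5 libraries and less in AMB3 (185.5 CPM), AMB10 (185) and AMB8 (177). SMARCA4, a chromatin remodelling ATPase, was between 195 and 242 CPM.

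Of 19 listed steroid-handling genes beyond the HSD11B pair, 10 had a row, and a missing row gives no level. Of the 7 tested, 2 had a range of at least 1 (1 without AMB5 or without AMB8), against 36.1% of all tested genes. These were HSD17B11, a dehydrogenase, with 18.6 to 23.3 CPM in 6 libraries, 14.4 in AMB10 and 8.27 in AMB8 (range 1.49, and 0.69 without AMB8), and STAR, the cholesterol carrier of steroid synthesis, with 13 to 38 counts per library (range 1.21, and 0.94 without AMB5). SRD5A1, a 5-alpha reductase, varied from 68.0 to 85.2 CPM. The carbonyl reductase CBR1 was highest in AMB10 (68.4 CPM), AMB8 (68.3) and AMB3 (62.8), and between 43.0 and 54.7 CPM elsewhere. AKR1D1, a steroid reductase of liver, was without a count throughout, which in AMB9 allows a level of up to 0.0754 CPM.

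Of 22 further genes known to respond to glucocorticoids 18 had a row and 16 were tested. The range reached 1 in 9 of the 16, against 36.1% of all tested genes, and 2 in 1 of the 16, against 9.0% (median 1.16). AMB3, AMB8 and AMB10 were highest for 3 of the 16 (NFKBIA, DDIT4 and MT2A), against 9.71% of all tested genes. They were lowest for 4 of the 16 (PER1, DUSP1, CEBPB and CDKN1A), against 9.87%. The cell cycle inhibitor CDKN1A had the widest range, 3.07 (2.18 without AMB8), with 47.0 to 58.0 CPM in 5 libraries and lower levels in AMB3 (30.5), AMB10 (12.8) and AMB8 (6.87). Conversely, the metal-binding MT2A reached 23.0 to 23.1 CPM in AMB3, AMB8 and AMB10 and 8.48 to 14.8 in the others. PER1, a clock gene, was at 45.2 CPM in AMB10 and 93.7 in AMB7. ANGPTL4 ran from 2.89 CPM in AMB9 to 11.7 in AMB6, and GLUL, glutamine synthetase, from 572 CPM in AMB7 to 861 in AMB3. Induced genes were found at both ends of the order, as were genes among all those tested.

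The releasing hormone axis varied widely in this tissue. In all 8 tested genes of 13 the range reached 1, against 36.1% of all tested genes. In 7 it reached 2 (5 without AMB8), against 9.0% of all tested genes. AMB3, AMB8 and AMB10 were lowest for CRH, CRHR1 and PCSK1, against 9.87% of all tested genes. They were highest for AVPR1B, against 9.71%. CRH, the releasing hormone itself, had 22.4 to 34.7 CPM in 5 libraries, then AMB3 (17.9 CPM), AMB10 (8.49) and AMB8 (4.70). Its receptor CRHR1 had 36.2 to 46.9 CPM in 5 libraries, with AMB3 (17.9 CPM), AMB8 (9.51) and AMB10 (7.23) below them. PCSK1, a prohormone convertase, had the widest range, 4.17, with 216 CPM in AMB5 at the top and 11.9 CPM in AMB8 at the bottom. The binding protein CRHBP lay between 10.2 CPM in AMB8 and 64.4 in AMB5 (range 2.65, and 1.31 without AMB8), and the vasopressin receptor AVPR1A between 1.06 CPM in AMB8 and 8.07 in AMB3. The pituitary precursor gene POMC had 17 to 106 counts, and MC2R, the adrenal receptor for its product corticotropin, had none in any library.

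Relatives of the receptors and genes of mineralocorticoid action complete the picture of the pathway. Of 7 other NR3 receptors 4 were tested, 3 of them with a range that reached 1, against 36.1% of all tested genes. ESRRA, an orphan receptor, was highest in AMB8 (36.9 CPM), AMB10 (32.5) and AMB3 (31.4), and had 20.6 to 29.7 CPM in the 5 others. ESRRG ran from 10.9 CPM in AMB8 to 27.2 in AMB7, and the oestrogen receptor ESR1 from 0.567 CPM in AMB8 to 1.72 in AMB3. Of 11 genes linked to mineralocorticoid action 7 were tested, and for 2 the range reached 2, against 9.0% of all tested genes. These were the kinase SGK2 (0.713 CPM in AMB5 to 3.70 in AMB10) and the salt transporter SLC12A3 (0.774 CPM in AMB6 to 3.94 in AMB8). Without AMB10 the range of SGK2 was 1.89, without AMB8 that of SLC12A3 was 1.74, and without AMB6 1 of the pair remained at 2. ATP1B1, a sodium pump subunit, was highest in AMB3 (1246 CPM), AMB10 (1195) and AMB8 (1105).

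For each of the 5 genes with a log2 range of at least 1, the genes of most similar profile over the 8 libraries were taken by the root mean square difference of median-centred log2 CPM. Left out of this search were 3300 genes with a LOC name or a repeated symbol. Because they were picked on these values, the nearest genes share high and low libraries by construction. For NR3C2 these were PKP2, a desmosomal protein (0.19), the transcription factor MSC (0.26), LMO1, a LIM-only transcription cofactor (0.28), SLC35F2 (0.36) and PROKR1, a prokineticin receptor (0.37). PKP2 reached 51.5 CPM (AMB8), 50.7 (AMB10), 31.3 (AMB3) and 16.0 (AMB4), with 5.66 to 11.0 in the other libraries. For HSD11B1 they were LRRC10B (0.32), the cytokine receptor IL20RA (0.35), B3GALT5 (0.39), RGS14 (0.44), a signalling regulator among the CA markers above, and RASL11A (0.46). RGS14 had 167 CPM in AMB10 but 4.98 CPM in AMB7, the library in which HSD11B1 was also lowest. For FKBP5 they were GYG1, a primer of glycogen synthesis (0.17), the semaphorin receptor NRP2 (0.21), ZFPM2 (0.22), the cochaperone TOMM34 (0.23) and KCTD6 (0.24).

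HSD11B2 was most like STBD1 (0.21), CARD16 (0.22), the T-cadherin gene CDH13 (0.23), the actin nucleator COBL (0.23) and the tachykinin gene TAC3 (0.25). COBL had the same highest library and the same 3 lowest libraries, with 242 CPM in AMB5, 134 to 164 in AMB4, AMB6, AMB7 and AMB9, 81.1 in AMB3, 51.6 in AMB10 and 40.1 in AMB8. SGK1 was most like DOCK4, DNMBP, PARVA, LCA5 and RAD1 (0.12 to 0.14). Mirror profiles, those nearest to the inverse, were taken for the 3 genes of largest range. They were GDF10 (0.26), ADAMTS8 (0.39) and IER5L (0.42) for NR3C2, and KCNH4 (0.49), HMCN2 (0.50) and STC2 (0.51) for HSD11B1. For HSD11B2 they were ZFPM2 (0.29), NHLH2 (0.34) and FKBP5 (0.34). GDF10, a secreted factor of the TGF-beta family, had 12.9 to 27.0 CPM in 5 libraries, 5.39 in AMB3 and 3.56 to 3.57 in AMB10 and AMB8.

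**Figure D5:**
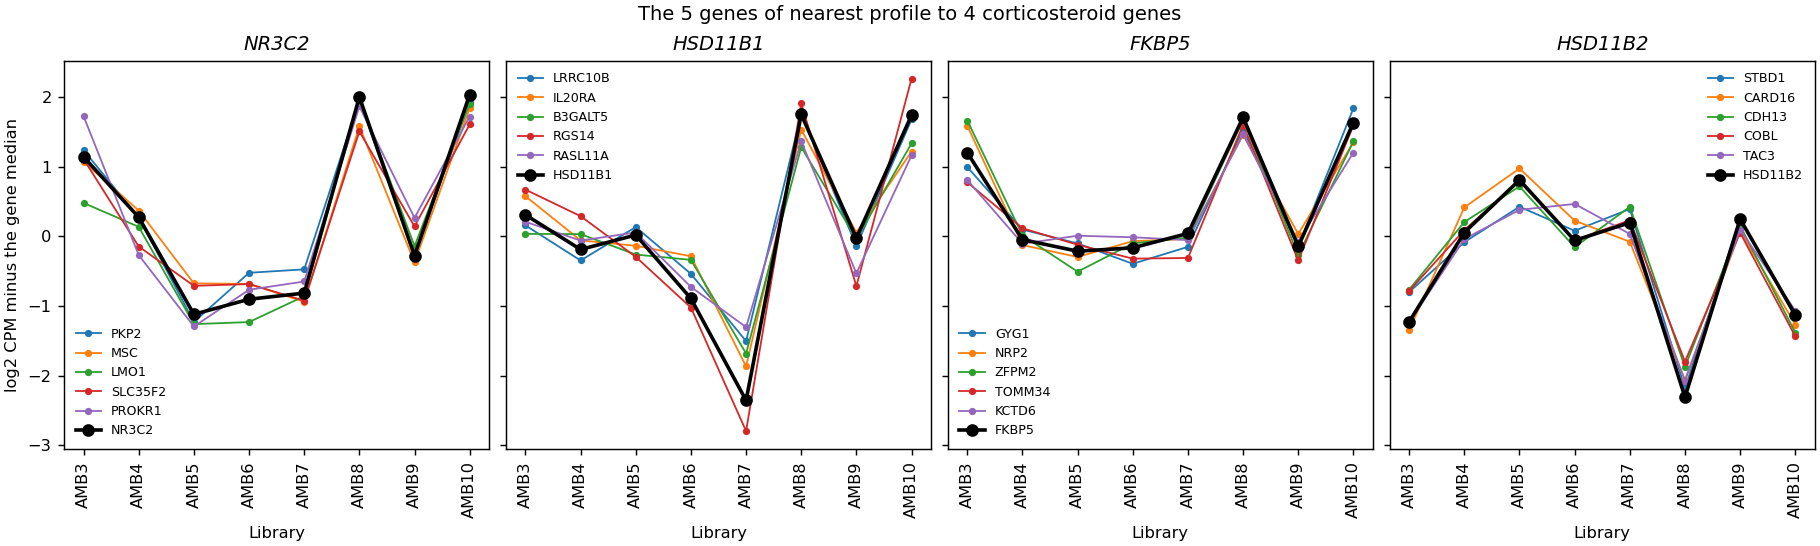
Each panel plots log2 CPM minus the gene median (vertical axis) in the 8 libraries (horizontal axis) for 1 corticosteroid gene in black and its 5 nearest genes in colour, and lines only join the points of a gene. Chosen on these same values, the 5 genes nearest to HSD11B1 share its low point in AMB7, and those nearest to HSD11B2 share its low point in AMB8.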

How the data were processed

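Raw and normalized values per RefSeq gene were deposited for 8 hippocampal libraries. The deposited raw columns hold estimated counts, many of them fractional, per the file headers. The deposited normalized columns hold log2 values relative to the median of AMB3, AMB8 and AMB10, as checked on the values, and per the submitters' processing notes DESeq was used, its version unstated. Aligner, counter, strand setting and build were not given in the sources used here. The 10 gene IDs, starts and ends matched the RefSeq table of Panubis1.0.

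Counts were rounded, filtered with filterByExpr (minimum count 10, no groups) and scaled by TMM in edgeR 4.0.16, with log2 CPM at a prior count of 2. The procedure was tested on simulated data. Alternatives were DESeq2 1.42.0 size factors, upper quartile factors, plain totals, a prior count of 0.5, unrounded counts, other filters, the deposited log2 values and leaving out each library. The genes and all lists were chosen with earlier results of these data known. Of 220 listed pathway and marker genes 200 had a row. Named from each pathway list were the tested genes with the 2 highest medians and the 2 widest ranges. From marker lists those with the 2 highest medians and the widest range could be named. Others are named where a count of 5 or fewer needs them. The values given for MT2A, CRH, CRHR1, POMC, AKR1D1, WFS1, PCP4 and AMIGO2, and the cortical names, were chosen after they were seen. Some genes the rule picks are not reported here. Sequences were not analysed here.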

Additional observations from a re-analysis of the deposited data

How the results depend on the processing

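The count of tested genes with a log2 range of at least 1 (6084) was 15841 over every gene with a count and 4036 at a minimum count of 50, and that of at least 2 (1518) was 5890 and 749. These filters change which genes are counted. Under the other settings both stayed within 1.5 times. Across the scalings, prior count, rounding and deposited values, 5 of the 10 genes kept a range of at least 1, and 3 had at least 2 or, with plain totals, where FKBP5 joined them, 4. Leaving out AMB8 lowered these counts to 4 (SGK1, 0.98) and 2 (HSD11B2, 1.95). The NR3C2 range lay between 3.15 and 3.22 over the same settings, that of HSD11B1 between 3.99 and 4.10, and that of HSD11B2, the gene with the fewest counts, between 2.84 and 3.15. The NR3C2 to NR3C1 span was 3.04 to 3.29 when a library was left out. Of the 5 genes nearest to NR3C2, 5 recurred with DESeq2 size factors and 4 when likeness was taken by the largest absolute difference. No paired analysis was possible because the labels give no groups. Since the groups are not known, no error within a group could be given.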

Other observations

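The epithelial sodium channel, a classic target of mineralocorticoid action in kidney, gave an uneven picture in genes that did not pass the count filter and were singled out after their values were seen. SCNN1B was at 14.2 CPM in AMB3 (576 counts) and at most 1.21 CPM in any other library. SCNN1G reached 2.17 CPM in AMB3, then 1.28 in AMB8, and had no count in AMB7. The urocortin gene UCN, a relative of CRH that also missed the filter, was at 2.94 CPM in AMB7 and 2.66 in AMB6, and at 0.154 CPM in AMB10, 0.197 in AMB3 and 0.269 in AMB8. The progesterone receptor PGR, another member of the receptor family below the filter, was at 0.0921 CPM in AMB5 (4 counts) and between 0.373 and 0.837 CPM elsewhere. For none of the 10 genes and 5 ratios did an extreme library lie farther from its neighbour than 0.526 of the range, the 95% critical value of Dixon's test for 8 values. This check looks at 1 extreme library and cannot flag libraries that stand apart together. For FKBP5 a gap of 0.603 of the range lay between AMB3 and AMB7, and for HSD11B1 a gap of 0.355 lay between AMB10 and AMB3.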
